A study of Mus musculus with 23 samples.

Results

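Slit2, a secreted guidance protein of the brain, had a lower mean level in mice given urolithin A with ethanol than in mice given ethanol alone, and that is why the Slit and Robo genes are described here. The 6 genes are the ligands Slit1, Slit2 and Slit3 and the receptors Robo1, Robo2 and Robo3, taken by symbol from a table of 19733 genes. Because the difference in Slit2 between the EtOH-UA and EtOH groups led to the choice, it is given below as a description with no test, and the same holds for the other 5 genes wherever EtOH-UA mice are compared.

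Hippocampal RNA of male C57BL/6J mice, wild type by the sample annotation, was sequenced in 3 groups. The 9 Ctrl mice received a control liquid diet and a daily gavage of carboxymethylcellulose sodium (CMC-Na), the vehicle, the 7 EtOH mice an ethanol liquid diet and the same vehicle, and the 7 EtOH-UA mice the ethanol diet and urolithin A (UA), a gut bacterial metabolite of ellagitannins, at 200 mg/kg/day in that vehicle. They arrived 6 weeks old, were treated for 16 weeks and spent 1 further week in behavioral tests before the tissue was taken. All 3 groups were on a liquid diet with daily gavage, and no group received UA without ethanol.

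Slit proteins are large secreted proteins that bind Robo receptors on the surface of growing axons, dendrites and migrating neurons, and binding generally turns the growing tip away from the source. Inside the cell, Robo recruits srGAP proteins, Abl kinases and adaptors, which act on small GTPases and so on actin. Heparan sulfate chains on syndecans and glypicans steady the contact between Slit and Robo. In the adult hippocampus the genes remain active in neurons, where Slit and Robo have been tied to dendrites and to synapses.

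The genes lie on 5 chromosomes (RefSeq genes on GRCm38, which is mm10). Slit1 (gene 20562) is at chr19:41597824-41747275, Slit2 (gene 20563) at chr5:47981291-48307735 and Slit3 (gene 20564) at chr11:35121456-35708507. Robo1 (gene 19876) at chr16:72027518-73047491 and Robo2 (gene 268902) at chr16:73891976-75447443 are neighbors, 0.844 Mb apart. Robo3 (gene 19649) at chr9:37416045-37433436 lies 2.02 kb from Robo4 (gene 74144, chr9:37401902-37414023), the Robo gene best known from blood vessels, which is used below for comparison and is not one of the 6.

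Both Slit2 and Slit3 carry a microRNA gene inside an intron, and the microRNA joins the ligands to their receptors by sequence, so it is shown here. Mir218-1 (chr5:48223942-48224051, plus strand) lies in intron 14 of Slit2 and Mir218-2 (chr11:35616816-35616925, plus strand) in intron 14 of Slit3, counted in the longest coding GENCODE transcript of each, which has 36 exons in both genes. Their mature 5p product has the same letters in RefSeq. Capitals mark the seed, bases 2 to 8, which pairs with a target.
mmu-miR-218-5p: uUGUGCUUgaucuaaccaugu
The letters that pair with this seed, AAGCACA, were searched on the sense strand of the longest annotated 3′ untranslated region of each gene. They were found in Slit2, Robo1, Robo2 and Robo3 and not in Slit1 or Slit3. Of 18064 genes of the table with such a region of at least 50 bases, 14.5% held them, with a median region of 1041 bases against 3987 bases in Robo2, 3492 in Slit2, 1733 in Robo1 and 343 in Robo3. The regions without a match had 1212 bases in Slit1 and 365 in Slit3, and a short region has fewer places for one. The stretches around the matches are given below with the match in capitals, in DNA letters. Those of Slit2 are at chr5:48304529-48304551 and chr5:48306832-48306854, that of Robo1 at chr16:73045334-73045356, all on the plus strand. Those of Robo2 are at chr16:73895357-73895379 and chr16:73893031-73893053, that of Robo3 at chr9:37416243-37416265, all on the minus strand.
Slit2, first match: gccaatactagcagAAGCACAtc
Slit2, second match: gataattattagcaAAGCACAta
Robo1: ttttttggttttaaAAGCACAat
Robo2, first match: ttttatttggtgatAAGCACAaa
Robo2, second match: gtcacggcagacccAAGCACAgc
Robo3: cttgtgactcactgAAGCACAct
A match in letters is not a measured target site, and neither Mir218-1 nor Mir218-2 is a row of this table of messenger RNA, so the level of the microRNA is not analysed here.

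The 250 bases before the start that the RefSeq promoter table lists for Slit2, which lies inside the range of the gene given above, are shown because Slit2 led to the choice of the family (GRCm38.p6, chr5:47982905-47983154, plus strand). Capitals mark TATAAA, the TATA motif.
Slit2 promoter: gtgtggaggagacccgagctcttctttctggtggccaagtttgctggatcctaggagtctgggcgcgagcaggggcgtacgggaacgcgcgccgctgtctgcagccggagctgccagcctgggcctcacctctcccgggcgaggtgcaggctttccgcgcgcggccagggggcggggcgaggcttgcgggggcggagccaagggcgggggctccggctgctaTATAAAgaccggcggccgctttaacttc
The motif starts 28 bases before that start. Searched on both strands, TATAAA was present in 12.4% of 32851 promoters of the same length, and it was in none of the promoters listed for Slit3, Robo1, Robo2, Robo3 or Robo4. No promoter was listed for Slit1, so that gene was not searched. The Slit2 stretch holds 25 CpG dinucleotides against a median of 6 over all promoters. That of Slit3 holds 35, and those of the Robo genes hold between 2 and 14.

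Every level below is in FPKM, which scales fragments to transcript length and to library size, so that levels can be set side by side between genes. From the steps between the lowest values of 18 genes with a single transcript, 1 FPKM was worth about 17.0 fragments per kilobase (quartiles 16 and 17.2). That corresponds to about 1020 fragments for Slit2 and about 403 for Robo3 in a mouse, and counting error alone then gives a coefficient of variation of 3.14% and 4.98%. Summed FPKM per library lay between 330456 and 361354 for Ctrl, 327896 and 366930 for EtOH, 333801 and 404609 for EtOH-UA mice. The 6 markers of hippocampal neurons, among them Camk2a, Nrgn and Slc17a7, were above 0 in every mouse. Markers of the choroid plexus, a tissue of the ventricle next to the hippocampus led by Ttr, differed far more between mice, from a summed 9.13 to 7860 FPKM. In bulk tissue, fewer cells of a type and less RNA per cell cannot be told apart.

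Slit1 was the most abundant ligand and Robo2 the most abundant receptor. Over all 23 mice the mean was 45.2 ± 4.7 FPKM for Slit1 (SD, as throughout), 15 ± 1.4 for Robo2, 11.8 ± 1.19 for Slit3, 8.99 ± 1.05 for Robo1, 6 ± 1.07 for Slit2 and 4.74 ± 1.34 for Robo3. Robo4 had 1.91 ± 0.324 FPKM. Each gene was above the next in this order in 23 of 23 mice, except that Slit2 was above Robo3 in 18 and below it in 5. Slit1 made up 71.8% ± 2.74 of the summed Slit FPKM, Slit3 18.7% ± 1.42 and Slit2 9.55% ± 1.63. Robo2 made up 52.4% ± 2.69 of the summed Robo1, Robo2 and Robo3 FPKM, Robo1 31.3% ± 2.16 and Robo3 16.3% ± 3.71. All 6 genes were above 0 in every mouse and passed the filter on low values, a mean of at least 0.1 FPKM.

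**Figure D1:**
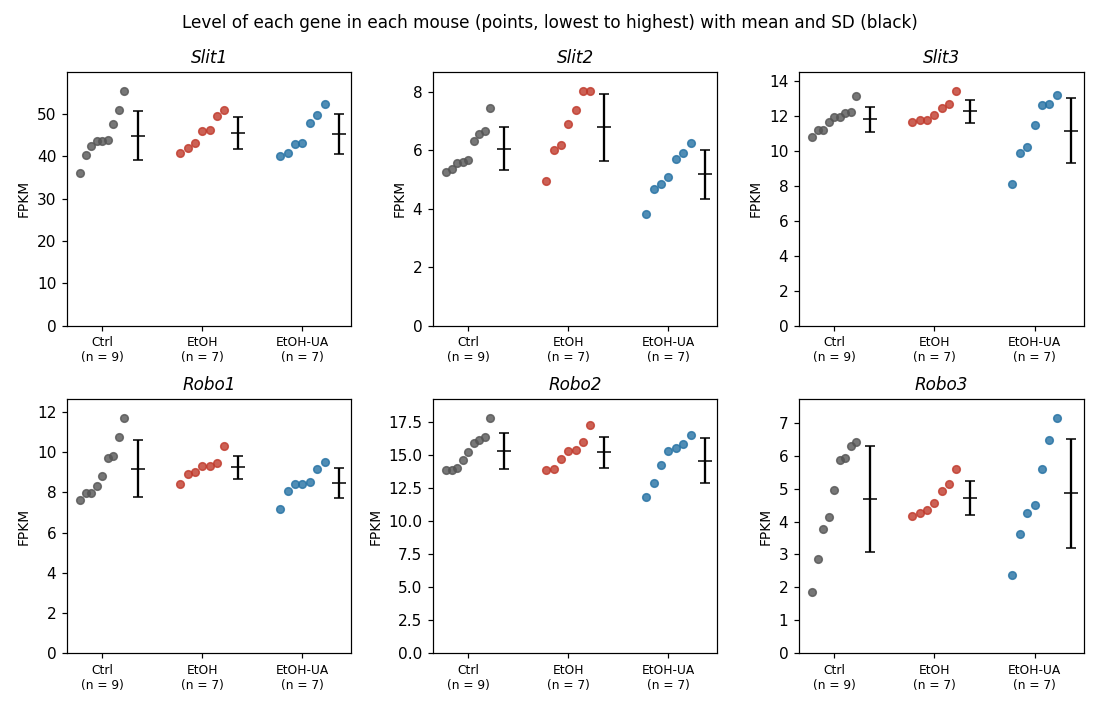
FPKM of Slit1, Slit2, Slit3, Robo1, Robo2 and Robo3 in each of 9 Ctrl, 7 EtOH and 7 EtOH-UA mice, sorted from lowest to highest within a group, with the group mean and SD in black. The groups overlap for every gene. Slit2 points of the EtOH-UA group all lie below the EtOH median of 6.89 FPKM, and Robo3 spreads widest in the Ctrl and EtOH-UA groups.

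Slit2 is the ligand that led to the choice. Ctrl mice spanned 5.24 to 7.45 FPKM with a median of 5.65, EtOH mice 4.95 to 8.03 with a median of 6.89, and EtOH-UA mice 3.82 to 6.24 with a median of 5.08. All 7 EtOH-UA mice were below the EtOH median, 3 of them were below the lowest EtOH mouse, and 4 EtOH mice were above the highest EtOH-UA mouse. The other EtOH mice, at 4.95, 6.01 and 6.17 FPKM, lay within the range of the EtOH-UA mice. Mean FPKM was 6.04 ± 0.738 for the Ctrl group, 6.78 ± 1.14 for the EtOH group and 5.18 ± 0.833 for the EtOH-UA group. On the scale of log2(FPKM + 0.1), used for all differences below, EtOH-UA mice were lower than EtOH mice by 0.38 (difference -0.38, SE 0.11, 0.768-fold). Against Ctrl mice the difference was -0.23 (SE 0.10) in EtOH-UA mice and 0.15 (SE 0.10) in EtOH mice. The EtOH mean was thus the highest of the 3 and the EtOH-UA mean the lowest, with the Ctrl mean between them. These contrasts share mice, so the last 2 are not separate evidence for the first.

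Slit3, the second ligand that hosts a copy of the microRNA, ran from 10.8 to 13.15 FPKM in the Ctrl group around a median of 11.93. The EtOH group spanned 11.67 to 13.46 (median 12.05) and the EtOH-UA group 8.1 to 13.2 (median 11.47). The EtOH-UA mice were spread over a wider range than the other groups, with 4 of 7 below the lowest EtOH mouse and others as high as the Ctrl mice. The difference between EtOH-UA and EtOH mice was -0.15 (SE 0.08). The lowest value, 8.1, came from the EtOH-UA mouse with the highest summed FPKM.

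Slit1, the ligand with the highest level, averaged 44.9 ± 5.76 FPKM for the Ctrl group, 45.6 ± 3.8 for the EtOH group and 45.3 ± 4.7 for the EtOH-UA group. Its ranges of 36.12 to 55.55, 40.94 to 51.03 and 40.04 to 52.32 FPKM lay largely over each other. EtOH mice differed from Ctrl mice by 0.03, EtOH-UA mice from EtOH mice by -0.01 and EtOH-UA mice from Ctrl mice by 0.02, each with an SE of 0.08. Within the Slit family, Slit2 accordingly took 9.69% ± 1.45 of the summed FPKM of Ctrl mice, 10.5% ± 1.69 of that of EtOH mice and 8.42% ± 1.24 of that of EtOH-UA mice.

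Robo1 and Robo2 are the main Slit receptors of neurons. Robo1 spanned 7.61 to 11.71 FPKM (median 8.83) among Ctrl mice, 8.41 to 10.29 (median 9.31) among EtOH mice and 7.15 to 9.53 (median 8.44) among EtOH-UA mice. For Robo1, 6 of 7 EtOH-UA mice were below the EtOH median and 2 were below the lowest EtOH mouse, with a difference of -0.13 (SE 0.08). Robo2 spanned 13.83 to 17.8 FPKM (median 15.25) among Ctrl mice, 13.87 to 17.23 (median 15.3) among EtOH mice and 11.83 to 16.5 (median 15.26) among EtOH-UA mice. Its 3 medians were almost alike, and the difference between EtOH-UA and EtOH mice was -0.06 (SE 0.07).

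Robo3, a divergent receptor best known for letting axons cross the midline, varied most of the 6 over all mice and within the Ctrl and EtOH-UA groups, but not among EtOH mice, where the coefficient of variation of Slit2 was 16.8%. Its level spanned 1.87 to 6.42 FPKM (median 4.96) among Ctrl mice, 4.16 to 5.59 (median 4.57) among EtOH mice and 2.36 to 7.15 (median 4.51) among EtOH-UA mice. The coefficient of variation was 34.6% in Ctrl and 34.3% in EtOH-UA mice but 11.2% in EtOH mice, against about 5.0% from counting. Differences between groups were small beside this spread, at 0.09 (SE 0.22) for EtOH against Ctrl, -0.03 (SE 0.24) for EtOH-UA against EtOH and 0.07 (SE 0.22) for EtOH-UA against Ctrl. Robo4 had 1.96 ± 0.333, 1.76 ± 0.266 and 1.98 ± 0.362 FPKM in Ctrl, EtOH and EtOH-UA mice. It was not used to choose the genes, and it passed the threshold in none of the 3 comparisons (limma adjusted p = 0.999, 0.900 and 0.999 in the order EtOH against Ctrl, EtOH-UA against EtOH and EtOH-UA against Ctrl).

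Did ethanol alone shift the family? Between EtOH and Ctrl mice, limma called 0 of the 5 genes tested (Slit2 was left out of the test) at an adjusted p under 0.05, and it called 0 of all 15985 genes tested (0%). At an unadjusted p under 0.05 it held 487 of them (3.05%) and none of the 5. The differences were 0.05 (SE 0.08) for Slit3, 0.03 (SE 0.08) for Slit1, 0.02 (SE 0.08) for Robo1, -0.01 (SE 0.07) for Robo2 and 0.09 (SE 0.22) for Robo3, each with a limma adjusted p of 0.999. The exact two-sided permutation test over all 11440 splits of the mice gave p = 0.201 for Slit3, 0.707 for Robo3, 0.740 for Slit1, 0.803 for Robo1 and 0.890 for Robo2. No difference was larger than the spread between mice, which for Robo3 allows differences of several times the estimate. The signs of these differences were not fixed: Robo2 was 0.01 under upper-quartile scaling of each library, leaving out 1 mouse reversed Slit1, Robo1, Robo2 or Robo3, and among the mice with high choroid plexus markers, described below, Robo3 was -0.33, Slit1 -0.09 and Robo1 -0.08.

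Between EtOH-UA and EtOH mice, all 6 genes had lower means on the log2 scale, where 51.2% of all genes tested had higher ones. The median was -0.10 over the 6 genes against 0.0033 over all genes tested. In FPKM, however, the Robo3 mean was higher in EtOH-UA mice, at 4.86 against 4.71 in EtOH mice. With 1 mouse left out at a time the log2 difference ran from -0.047 to 0.017 for Slit1 and from -0.133 to 0.127 for Robo3. The signs of these genes were thus not fixed, while those of the other genes stayed negative. Over the whole table limma called 0 of 15985 genes (0%), and 523 (3.27%) had an unadjusted p under 0.05. Against Ctrl mice, 4 of the 6 genes were lower in EtOH-UA mice, where 51.2% of all genes were higher, with a median of -0.08 against 0.0024 over all genes. Here too limma called 0 of 15985 genes (0%), with 492 (3.08%) at an unadjusted p under 0.05. The choice of the family used the first of these contrasts and the mice of the second, so nothing is read from the directions of the 6 genes.

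**Figure D2:**
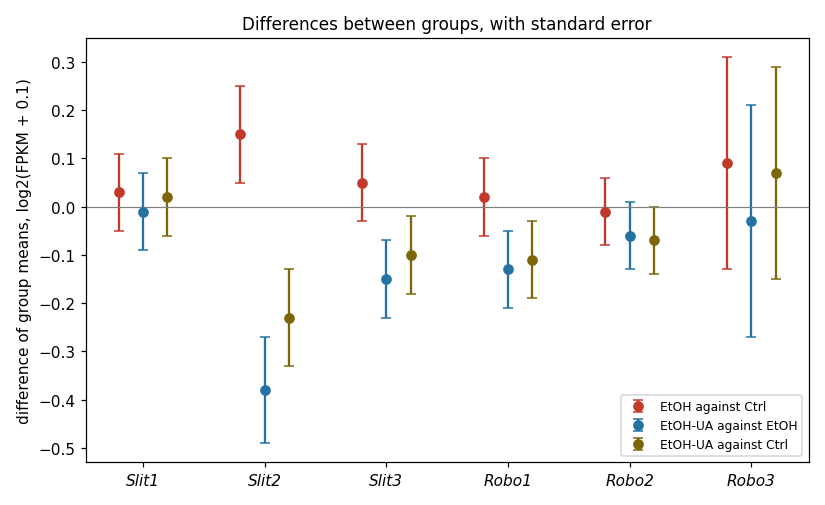
Difference of group means on the scale of log2(FPKM + 0.1), with the standard error from limma as bars, for the 6 genes in 3 comparisons that share mice. Slit2 stands at -0.38 for EtOH-UA against EtOH, at -0.23 for EtOH-UA against Ctrl and at 0.15 for EtOH against Ctrl, and Robo3 has the widest bars.

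Choroid plexus markers differed widely between mice and are therefore set beside Slit2. The summed FPKM of the 8 markers, of which Ttr, Kl and Clic6 were the most abundant, left a wide gap between 9 mice at or below 81.7 and 14 mice at or above 491. The high mice were 4 of 9 Ctrl, 6 of 7 EtOH and 4 of 7 EtOH-UA mice. The Ctrl sums lay between 9.13 and 2990 FPKM (median 61.9), the EtOH sums between 71.3 and 5790 (median 1290). The EtOH-UA sums lay between 17.2 and 7860 FPKM, with a median of 1870, above that of the EtOH mice. None of the markers was at 0 in any mouse. On the log2 scale all 8 had higher means in EtOH than in Ctrl mice (median 1.66), against 48.6% of all genes. All 8 had lower means in EtOH-UA than in EtOH mice (median -0.51), where 51.2% of all genes had higher ones. limma called none of the 8. At an unadjusted p under 0.05 it held 1 for EtOH against Ctrl and 0 for EtOH-UA against EtOH. The 6 ependymal markers, led by Rarres2, Ccdc153 and Foxj1, were higher in EtOH than in Ctrl mice as well (median 0.93, none called, 5 with an unadjusted limma p under 0.05). Their sum lay between 6.73 and 18.4 FPKM for Ctrl, 15.1 and 28.2 for EtOH, 8.92 and 26.5 for EtOH-UA mice, with 1 marker at 0 in a Ctrl mouse.

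Among the 14 mice with high choroid plexus markers, Slit2 averaged 6.27 ± 0.479 FPKM for the 4 Ctrl mice, 6.91 ± 1.19 for the 6 EtOH mice and 5.67 ± 0.598 for the 4 EtOH-UA mice. Among the 9 mice with low markers it was at 5.86 ± 0.906 in 5 Ctrl and 4.52 ± 0.642 in 3 EtOH-UA mice, and at 6.01 in the only EtOH mouse. The difference between EtOH-UA and EtOH mice was -0.27 among the high mice and -0.41 among the low mice, where it rests on that EtOH mouse. Against Ctrl mice it was -0.15 and -0.36. The part of choroid plexus tissue in these values was not tested. The Pearson r of Slit2 with the choroid plexus markers, on deviations from group means, was 0.15 among the high and 0.14 among the low mice. Within Ctrl, EtOH and EtOH-UA mice, each a mix of high and low mice, it was 0.45, 0.31 and 0.54. For Robo1 and Robo2 that r was 0.36 and 0.06 among the high mice but 0.73 and 0.83 among the low mice. For EtOH-UA against Ctrl the high and low mice had opposite signs for Robo3 (-0.36 among the high and 0.43 among the low mice) and Slit1 (-0.09 and 0.10). For EtOH against Ctrl, with 1 EtOH mouse among the low mice, they had opposite signs for Robo3 (-0.33 and 0.65), Slit1 (-0.09 and 0.14), Robo1 (-0.08 and 0.07) and Robo2 (-0.05 and 0.04).

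**Figure D3:**
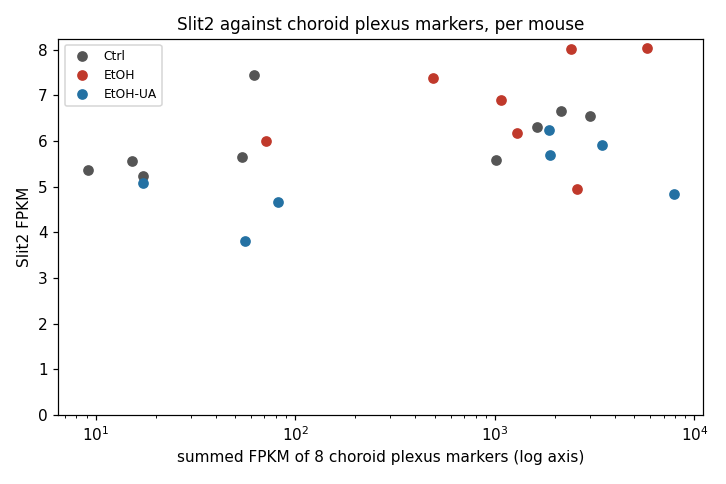
Slit2 FPKM against the summed FPKM of 8 choroid plexus markers on a log axis, 1 point per mouse, colored by group. The mice fall into 9 at or below 81.7 and 14 at or above 491 summed FPKM, with 3 EtOH-UA mice and 1 EtOH mouse among the 9.

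The partners of the pathway were taken from a list of 46 genes, all of which passed the filter. limma called none of them in any comparison. Medians were 0.01 for EtOH against Ctrl, -0.01 for EtOH-UA against EtOH and -0.01 for EtOH-UA against Ctrl, near those of all genes. At an unadjusted p under 0.05, 0 of 46 genes were found for EtOH against Ctrl, 3 (6.52%, against 3.27% of all genes), all higher, for EtOH-UA against EtOH, and 1 higher and 1 lower (4.35%, against 3.08%) for EtOH-UA against Ctrl.

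Among other ligands and receptors, Nell2, a secreted ligand of Robo3, was far above the Slit genes at 234 ± 14.4 FPKM in Ctrl mice, with a difference of 0.06 (SE 0.06) between EtOH-UA and EtOH mice. Dag1, the matrix receptor dystroglycan that binds Slit, had 19.2 ± 1.25 FPKM in Ctrl mice and a difference of -0.05 (SE 0.05). Plxna1, a plexin that also binds Slit, had 20 ± 1.23 FPKM in Ctrl mice and a difference of -0.10 (SE 0.08). None of the 7 genes of this group reached an unadjusted p under 0.05 in any comparison.

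Of the heparan sulfate proteoglycans, Sdc3 had 41.4 ± 3.14 FPKM, Sdc4 33.4 ± 3.61 and Gpc1 28.3 ± 1.96 in Ctrl mice. Sdc4, a syndecan of the cell surface, was the gene of the list with the smallest p: its EtOH-UA mean exceeded the EtOH mean by 0.21 (SE 0.07, limma unadjusted p = 0.00614, adjusted p = 0.900) and the Ctrl mean by 0.17 (SE 0.07, unadjusted p = 0.019, adjusted p = 0.999). Neither difference passed the adjustment.

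The srGAP proteins bind the tail of Robo and switch off small GTPases. Srgap3 had 64.9 ± 6.41 FPKM in Ctrl mice and Srgap2 12.9 ± 0.757, and both differed by -0.15 between EtOH-UA and EtOH mice (SE 0.10 and 0.08). Arhgap39, the vertebrate relative of the fly protein Vilse, had 27.7 ± 1.86 FPKM and a difference of 0.04 (SE 0.07). Of the 6 genes of this group 5 had an EtOH-UA mean below the EtOH mean, and 0 passed an unadjusted p under 0.05. The GTPases Cdc42 (170 ± 12.8 FPKM in Ctrl mice) and Rac1 (136 ± 4.58) each differed by 0.06 in that comparison, within 2 standard errors, and their kinase Pak1 had 110 ± 5.51 FPKM in EtOH and 109 ± 6.73 in EtOH-UA mice.

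Among adaptors and regulators of actin and microtubules, Ctnnb1, Cap1 and Clasp2 were the most abundant, and none reached an unadjusted p under 0.05. Nck1, an adaptor that links Robo to Pak, had an EtOH-UA mean above the EtOH mean by 0.16 (SE 0.07, limma unadjusted p = 0.0261, adjusted p = 0.900). Clasp1, which binds microtubule ends, differed by -0.13 between EtOH-UA and Ctrl mice (SE 0.06, limma unadjusted p = 0.0374, adjusted p = 0.999). Of the genes of receptor turnover, Ndfip1 and Ndfip2 recruit Nedd4-type ubiquitin ligases to Robo1, and Usp33 removes ubiquitin from it. Ndfip1 had 355 ± 35.3 FPKM, Nedd4 109 ± 5.05 and Usp33 37.1 ± 1.54 in Ctrl mice. For Ndfip2 the EtOH-UA mean was above the EtOH mean by 0.17 (SE 0.07, limma unadjusted p = 0.0281, adjusted p = 0.900), and Ndfip1 differed by 0.10 (SE 0.08).

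Other axon guidance families were set beside the Slit and Robo genes. Of 60 netrin, semaphorin, plexin and ephrin genes limma called none in any comparison, and medians were 0.04, -0.03 and -0.02 for EtOH against Ctrl, EtOH-UA against EtOH and EtOH-UA against Ctrl. Of the 30 semaphorins, plexins and neuropilins 25 had an EtOH-UA mean below the EtOH mean, with a median of -0.05 and 0 at an unadjusted p under 0.05. The most abundant of them were Sema7a (39.6 ± 4.5 FPKM in Ctrl mice), Sema6b (28.6 ± 2.2) and Nrp1 (21.9 ± 3.51), which differed by 0.07, -0.04 and -0.08 in that comparison. Unc5a, Neo1 and Ntng2 led the netrin family. Unc5a and Neo1 differed by -0.05 and -0.02, and Ntng2 had 14.9 ± 0.906 FPKM in EtOH and 15 ± 1.47 in EtOH-UA mice. In the ephrin family, Epha4, a receptor of hippocampal dendrites, had 70.8 ± 12.5 FPKM in Ctrl mice and a difference of -0.02 (SE 0.11), and Epha7 43.8 ± 10.1 FPKM and a difference of 0.15 (SE 0.14). Efnb3, an ephrin ligand, was the only gene of the list with an unadjusted limma p under 0.05 in any comparison, with EtOH-UA against EtOH at -0.16 (SE 0.07, unadjusted p = 0.0226, limma adjusted p = 0.900) and EtOH-UA against Ctrl at -0.13 (SE 0.06, unadjusted p = 0.0424, limma adjusted p = 0.999).

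How the 6 genes varied together from mouse to mouse was asked on deviations from group means over 23 mice, which removes the contrast the family was chosen on. Of 15 pairs, 14 had a positive Pearson r, and 7 had an adjusted permutation p under 0.05 (Benjamini-Hochberg over the 15 pairs, 100000 two-sided permutations within groups), all 7 positive. Without 1 or the other of 2 Ctrl mice 3 pairs passed, and without 1 EtOH-UA mouse 4 did. The receptors Robo1 and Robo2, neighbors on chromosome 16, gave r = 0.71 (permutation p = 0.00019, adjusted p = 0.00285) and Spearman rho = 0.71 (permutation p = 0.00055, adjusted p = 0.0058). Without the 2 mice farthest from the median of Robo2 r was 0.59. It was 0.94 within Ctrl mice, 0.90 within EtOH-UA mice and -0.14 within EtOH mice, where Robo1 varied least. Slit1 and Robo3 gave r = 0.70 (permutation p = 0.00104, adjusted p = 0.0078) and rho = 0.68 (permutation p = 0.00116, adjusted p = 0.0058), 0.55 without the 2 farthest mice, and 0.80, 0.35 and 0.67 within Ctrl, EtOH and EtOH-UA mice. Both pairs passed in all 23 runs that left out 1 mouse.

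Slit2 varied with Slit3 (r = 0.54, permutation p = 0.0109, adjusted p = 0.0274, rho = 0.63 with permutation p = 0.0021) and with Robo1 (r = 0.49, permutation p = 0.0102, adjusted p = 0.0274, rho = 0.58 with permutation p = 0.00402). Without the 2 farthest mice these were 0.64 and 0.47. With Slit1 its r was 0.02 (permutation p = 0.912, rho = 0.05) and with Robo3 -0.27 (permutation p = 0.198, rho = -0.19), neither past the threshold. The other pairs past the threshold were Slit1 with Robo1 (r = 0.60, rho = 0.60, adjusted permutation p = 0.0274 and 0.0111), Slit3 with Robo1 (r = 0.52, rho = 0.65, adjusted permutation p = 0.0158 and 0.0058) and Slit1 with Slit3 (r = 0.48, rho = 0.55, adjusted permutation p = 0.0391 and 0.0278). Without the 2 farthest mice these were 0.52, 0.54 and 0.47. Many genes outside the family were closer to its members than these: of 12903 genes averaging 1 FPKM or more, Slit3 ranked 288 in likeness to Slit2, Slit2 ranked 1049 in likeness to Slit3, and Robo2 ranked 67 in likeness to Robo1. In the other direction Robo1 ranked 579 in likeness to Robo2. Over both directions of the pairs past the threshold, the share of genes with a higher r ran from 0.512% (Robo2 in likeness to Robo1) to 12.5% (Slit1 in likeness to Slit3).

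**Figure D4:**
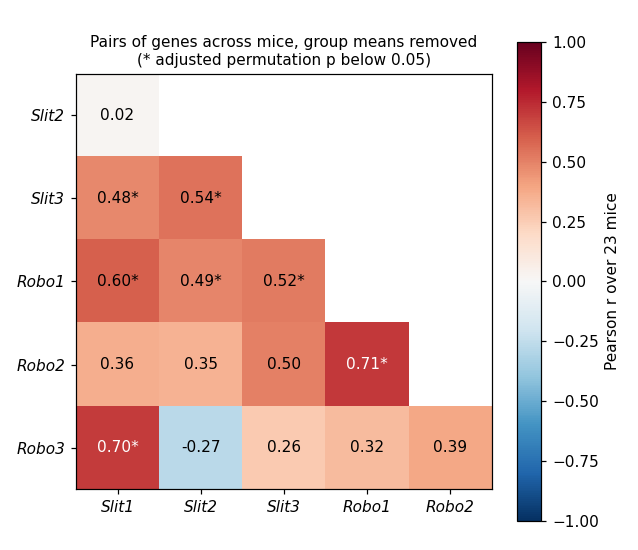
Pearson r between each pair of the 6 genes over 23 mice, from deviations from group means of log2(FPKM + 0.1), with an asterisk where the adjusted permutation p was under 0.05. Robo1 with Robo2 (0.71) and Slit1 with Robo3 (0.70) are the deepest red, and Slit2 with Robo3 (-0.27) is the only blue square.

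Library properties moved with part of these values. The slope of expression on transcript length, 1 number per library, correlated over 23 mice with Robo2 (r = 0.77, adjusted permutation p = 0.00144 over 12 relations), Slit3 (r = 0.67, adjusted permutation p = 0.0222), Robo3 (r = 0.50, adjusted permutation p = 0.0349) and Robo1 (r = 0.46, adjusted permutation p = 0.0349), and not past the threshold with Slit2 (r = 0.36, adjusted permutation p = 0.178) or Slit1 (r = 0.29, adjusted permutation p = 0.196). By Spearman's rho Robo2 (0.77, adjusted permutation p = 0.0012), Robo3 (0.57, 0.0231) and Robo1 (0.51, 0.0333) passed and Slit3 (0.48, 0.0786) did not. Without the 2 farthest mice r was 0.79 for Robo2, 0.62 for Robo3, 0.59 for Robo1 and 0.45 for Slit3. The slope was fitted over 12618 genes that included the members of the family, whose longest annotated transcripts run from 5.0 kb (Robo3) to 9.96 kb (Slit2). For genes with long transcripts a positive r with this slope is partly built in. The share of other genes with as high an r was not computed, so these p-values do not set the family apart. After this slope was removed, Robo1 with Robo2 and Slit1 with Robo3 still passed, 5 other pairs no longer did, and Slit2 with Robo3 passed at r = -0.55 (adjusted permutation p = 0.0263), so that 3 of 15 pairs passed. The EtOH-UA mouse with the highest summed FPKM was the lowest or the second lowest of its group for Slit1, Slit3, Robo1, Robo2 and Robo3 and the third lowest for Slit2.

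Marker lists for 17 cell types or neighboring tissues were compared with the 6 genes in the same way. Of 102 relations 9 had an adjusted permutation p under 0.05, of which 4 were positive and 5 negative, and none by r involved Slit2. That count depended on single mice, at 1 to 19 with 1 mouse left out, so the list of relations below is not a stable one. By rho 7 relations passed, 2 of which did not pass by r: Slit2 went against astrocyte markers, led by Aldoc, Slc1a3 and Gfap (rho = -0.61, adjusted permutation p = 0.0418, r = -0.54, adjusted permutation p = 0.0765, -0.65 without the 2 farthest mice), and Robo3 went with ependymal markers (rho = 0.68, adjusted permutation p = 0.0372, r = 0.60, adjusted permutation p = 0.0856, 0.58 without the 2 farthest mice). Summed astrocyte markers lay between 542 and 640 FPKM for Ctrl, 561 and 657 for EtOH, 545 and 698 for EtOH-UA mice, and their part in the Slit2 values was not tested. The choroid plexus list splits the mice into separate clusters, so no r over all 23 mice is given for it. Slit1 followed the markers of dentate granule cells, the small neurons of the dentate gyrus, led here by Calb1, C1ql2 and Stxbp6 (r = 0.77, permutation p = 4e-05, adjusted p = 0.00408, rho = 0.71 with permutation p = 0.00037). It was 0.71 without the 2 farthest mice, 0.91, 0.44 and 0.63 within Ctrl, EtOH and EtOH-UA mice, and 0.69 and 0.86 within the mice with high and low choroid plexus markers, and it passed in all 23 runs that left out 1 mouse.

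Robo3 followed the same list (r = 0.79, permutation p = 0.00073, adjusted p = 0.0252, rho = 0.57 with permutation p = 0.0127 and adjusted p = 0.0925, which did not pass), but this rested in large part on 2 mice. 1 Ctrl mouse and 1 EtOH-UA mouse had the dentate markers 0.92 and 0.66 below their group means, with the next mouse at 0.15 below, and these mice had the lowest Robo3 of their groups, at 1.87 and 2.36 FPKM, and the lowest Slit1, at 36.12 and 40.04 FPKM. It passed in 16 of 23 runs that left out 1 mouse. Without these 2 mice r was 0.47 for Robo3, and within EtOH mice it was -0.14. Without these 2 mice the difference in Robo3 was -0.05 for EtOH against Ctrl and 0.13 for EtOH-UA against EtOH, both opposite in sign to the values over all mice. The dentate list itself had higher means in EtOH-UA than in EtOH mice for 6 of 6 genes (median 0.11, none called), with sums between 112 and 186 FPKM against 120 and 142, and between 99.1 and 157 FPKM in the Ctrl group.

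**Figure D5:**
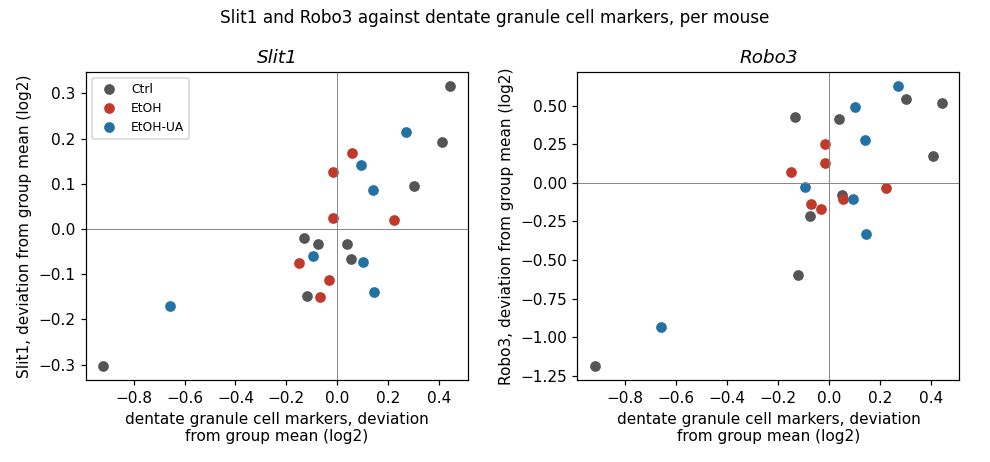
Deviation of Slit1 (left) and Robo3 (right) from the group mean of log2(FPKM + 0.1) against the mean deviation of 6 dentate granule cell markers, 1 point per mouse, colored by group. The Ctrl mouse at -0.92 and the EtOH-UA mouse at -0.66 on the horizontal axis are the lowest for both genes within their groups, and the remaining mice form a looser cloud for Robo3 than for Slit1.

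Of the 9 relations past the threshold by r, 5 also passed by rho, and 7 of the 9 were with markers other than those of dentate granule cells. Thalamic markers, led by Prkcd, Rora and Zic1, went with Robo3 (r = 0.67, rho = 0.68, adjusted permutation p = 0.0252 and 0.0187) and Robo2 (r = 0.61, rho = 0.56, adjusted permutation p = 0.0486 and 0.0752). Robo3 went against the markers of mossy cells, the excitatory neurons of the hilus, led by Calb2, Ajap1 and Cartpt (r = -0.66, rho = -0.69, adjusted permutation p = 0.0486 and 0.0288). Interneuron markers, led by Sst, Gad1 and Npy, went against Robo1 (r = -0.63, rho = -0.56, adjusted permutation p = 0.0486 and 0.0925) and Slit1 (r = -0.61, rho = -0.70, adjusted permutation p = 0.0494 and 0.0187). Microglial markers, led by C1qa, Csf1r and P2ry12, went against Robo2 (r = -0.62, rho = -0.65, adjusted permutation p = 0.0486 and 0.0312) and Slit3 (r = -0.58, rho = -0.49, adjusted permutation p = 0.0486 and 0.0989). Leaving out 1 mouse at a time, Robo3 with thalamic markers passed in 17 of 23 runs and the other 6 in between 2 and 10, and the signs held in all. Without the 2 farthest mice r was 0.63 for Robo3 and 0.50 for Robo2 with thalamic markers, -0.76 for Robo3 with mossy cells, -0.38 for Robo1 and -0.53 for Slit1 with interneurons, and -0.62 for Robo2 and -0.58 for Slit3 with microglia. Whether the dissected pieces differed in the share of these regions was not tested.

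The genes whose pattern over the 23 mice was most like each member were sought among those 12903 genes, by Pearson r of deviations from group means, as a description. For Slit2 they were Htr2c, the serotonin 2C receptor (r = 0.85), Spock1, a brain proteoglycan (0.82), Wdr35, a protein of ciliary transport (0.80), Kcnd3, a potassium channel (0.79), and Plagl1, an imprinted zinc finger gene (0.79). Htr2c is itself expressed strongly in choroid plexus, and its r with Slit2 was 0.78 among the mice with high and 0.91 among those with low choroid plexus markers. The Ctrl, EtOH and EtOH-UA means were 12.8 ± 3.71, 14.7 ± 5.21 and 12.7 ± 4.65 FPKM for Htr2c, 57.2 ± 6.02, 58.3 ± 5.89 and 51.4 ± 4.09 for Spock1, and 12.7 ± 0.922, 13.6 ± 1.16 and 13.1 ± 0.941 for Wdr35. They were 20.1 ± 2.07, 21.1 ± 1.97 and 19.6 ± 1.89 FPKM for Kcnd3 and 5.43 ± 1.16, 6.51 ± 1.69 and 4.59 ± 1.65 for Plagl1.

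Slit1 was most like Galnt17 (r = 0.92), a glycosyltransferase gene, Mast3 (0.91), a kinase gene, and Slc8a2 (0.91), a sodium-calcium exchanger. Slit3 was most like Gas7 (0.87), Zfp831 (0.85) and Dscaml1 (0.84), a cell adhesion gene. Robo1 was most like Camk1d (0.88), a calcium-dependent kinase gene, and Clmp (0.88), an adhesion gene. Robo2 was most like Slk (0.90), a kinase gene. Robo3 was most like Tctn1 (0.91), a gene of the ciliary transition zone, and Abcc8 (0.90), a subunit of potassium channels. The genes named as most like Slit3 and Robo2 also followed the length slope of the libraries, with r from 0.76 to 0.89, whereas those most like Slit1 had r from 0.20 to 0.25 with it. The others lay between: r with the slope was 0.64 for Camk1d and 0.40 for Clmp, and 0.58 for Abcc8 and 0.42 for Tctn1. Among the genes most like Slit2 it ran from 0.08 (Wdr35) to 0.58 (Kcnd3), with Plagl1 at 0.57.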

How the data were processed

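Hippocampal RNA of 9 Ctrl, 7 EtOH and 7 EtOH-UA mice was used. The authors deposited FPKM with 2 decimals, which RSEM derived from reads that Bowtie2 had placed on mm10. The methods and the submitters' processing notes give different versions of these tools, and the methods name poly(A)+ RNA where the labels name total RNA. The columns carry mouse numbers that the labels do not, so they were assigned to groups by name, and p-values measure the spread between these mice. The members and lists were chosen with earlier results of these data known.

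FPKM are not counts, so limma 3.58.1 (R 4.3.3) was applied to log2(FPKM + 0.1) of the 15985 genes averaging 0.1 FPKM or more. A single fit covered all 3 groups, with an intensity trend, Benjamini-Hochberg adjustment over all genes and a threshold of 0.05. Single genes were compared by exact two-sided permutation of mice. Correlations used deviations from group means and 100000 permutations within groups. Genes named are the 6 members, Robo4, the 3 most abundant genes of each group of the pathway and guidance lists with any gene at an unadjusted p under 0.05, the 3 most abundant markers, and the 5 genes most like Slit2 and 3 most like each other member. Some genes that this rule selects are not reported here. On simulated data for EtOH-UA against EtOH with 15985 genes and 200 of them changed, 62.5% were recovered at a log2 change of 0.5, 89.0% at 1 and 99.0% at 2. Each gene was drawn independently from a normal distribution with its own mean and SD. Variation that genes of a library share was not simulated, so these rates need not hold for the real mice. The depth estimate used values within 0.0075 FPKM of whole steps and annotated transcript lengths.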

Additional observations from a re-analysis of the deposited data

Results flagged for a closer look

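None of the 6 Slit and Robo genes had a mouse that stood apart from its group, judged by the gap to the nearest mouse over the range of the group on the log2 scale against Dixon's 95% limit. Over 171 groups of 57 genes named above, 8 groups had such a mouse, where 8.55 would be marked if about 1 in 20 is marked by chance. Among the EtOH-UA mice, the highest Nck1 was 12.85 FPKM (next 10.47), and the lowest values were 12.32 FPKM for Plxna1 (next 17.2), 8.0 for Srgap2 (next 11.87), 5.52 for Clmp (next 7.72) and 60.18 for Gas7 (next 74.96). The lowest EtOH mouse had 15.9 FPKM of Neo1 (next 17.95), and the lowest EtOH mouse for Srgap3 had 58.84 FPKM (next 65.69). The lowest Ctrl mouse for Srgap2 had 11.24 FPKM (next 12.43).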

How the results depend on the processing

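Of 1423 values recomputed under other settings, 1226 were marked as kept, 27 as reversed and 25 as moved, while 144 lost and 1 gained the threshold. Kept values held their direction and their side of the threshold or, without a test, moved by less than 1 SD. Counts of genes or pairs were kept if they stayed within a fixed ratio of the main count. Only values with a test could be marked as reversed, so a change of sign without a test is not among the 27. The difference in Slit2 between EtOH-UA and EtOH mice ran from -0.45 to -0.31 with 1 mouse left out at a time. Under the other settings it ran from -0.41 to -0.27. The first of these ends came from the mice with low choroid plexus markers, with 1 EtOH mouse among them, and the second from those with high markers. In each of the 3 comparisons limma called 0 to 1 genes with 1 mouse left out, the 1 being reached without Ctrl mouse 9 (counted in column order) for EtOH against Ctrl and without EtOH-UA mouse 6 or 7 for the other comparisons. For EtOH against Ctrl, leaving out 1 mouse gave -0.011 to 0.067 for Slit1, -0.01 to 0.067 for Robo1, -0.039 to 0.019 for Robo2 and -0.053 to 0.162 for Robo3, and Robo2 was 0.01 under upper-quartile scaling and 0.001 under quantile normalization. Among mice with high choroid plexus markers Slit1 was -0.09, Robo1 -0.08 and Robo3 -0.33, and without the 2 mice lowest in dentate markers Slit1 was -0.011 and Robo3 -0.053. Of the member pairs 3 passed with the slope on transcript length removed and 3 to 9 with 1 mouse left out (3 without Ctrl mouse 1 or 7), and Slit1 with Slit2 was at r = -0.09 with the slope removed and -0.06 to 0.21 with 1 mouse left out. Relations with marker lists numbered 5 under upper-quartile scaling and 1 to 19 with 1 mouse left out (1 without Ctrl mouse 1, 6 or 7 or EtOH-UA mouse 4 or 6, 19 without EtOH-UA mouse 2). The cause of these changes was not tested. Settings chosen after seeing the data were the slope removal, the split by choroid plexus markers and leaving out the 2 mice lowest in dentate markers. No paired analysis was possible because the columns carry mouse numbers and not the replicate numbers of the labels. Without counts, depth is known only as an estimate. By that estimate counting error was below the spread between mice for each Slit and Robo gene. It came closest for Slit3, with coefficients of variation of 3.03% from counting and 5.26% between EtOH mice.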
